A study of Mus musculus with 25 samples.

Results

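Smooth muscle cells and contractile mesenchymal cells share a set of genes for the actin and myosin filaments that let them shorten. Of these genes, 9 were followed through 5 tissues of the mouse embryo, namely the coactivator gene Myocd, the actin genes Acta2 and Actg2, the myosin heavy chain gene Myh11, the kinase gene Mylk and the genes of the filament-associated proteins Tagln, Cnn1, Lmod1 and Smtn. The 9 were chosen by name from the 35880 genes of the count table, with no measured value in the rule, and each matched a single gene identifier. Earlier results of these data were known when they were chosen. RNA-Seq was done on 25 pools of C57Bl/6JOlaHsd mesenchyme, 5 from each tissue. Stages are embryonic days. The tissues were the fat pad precursor (E16.5 FP), mammary mesenchyme of the later and the earlier stage (E16.5 MM and E13.5 MM), mesenchyme around the salivary gland (E13.5 SM) and mesenchyme of ventral skin away from the mammary region (E13.5 VM). All were freed of epithelium with Dispase II and pancreatin-trypsin and by hand. The E16.5 embryos were female, and the labels give no sex for those at E13.5. A pool held tissue of 2 to 3 littermates, and 3 litters supplied the 5 pools of a tissue, so the p-values measure the spread between pools, some of which share a litter. These are pieces of bulk tissue, in which fewer cells of a type and less RNA per cell cannot be told apart.

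Smooth muscle contracts when calcium activates the kinase encoded by Mylk, which phosphorylates the myosin light chain so that the heavy chain encoded by Myh11 can pull on actin filaments. Most of the genes of this machinery are switched on by serum response factor (Srf), which binds a DNA motif called the CArG box and depends on partners for its activity, of which myocardin, the product of Myocd, is the strongest in smooth muscle. In embryonic skin and glands, smooth muscle and its relatives are found mainly in the walls of vessels, while Acta2 and Tagln are also made by fibroblasts under tension.

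The totals of estimated counts per library ran between 20678150 and 34448304, with a median of 26370369. Levels are given as normalized counts, the estimated reads of a gene scaled to the mean library size of 26505080, and as means ± SD over the 5 pools. A gene was called between tissues where edgeR's quasi-likelihood test gave an adjusted p under 0.05, the log2 fold change was 0.58 or more in either direction, and the tissue with more of it averaged over 50 normalized counts. All 9 genes passed the expression filter, which kept 17657 genes, and none was at 0 in any pool.

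The region just upstream of the transcription start is shown for Acta2 and Lmod1, the members in which a search of the promoter found letters close to the CArG box. RefSeq promoter windows (GRCm38.p6, 250 bases before the start to 50 after it) were at hand for 5 members, Acta2, Cnn1, Lmod1, Smtn and Mylk. None of the 5 held an exact CArG box, which 1.63% of all 32851 windows did. The motif reads alike on both strands, so a single search covered both. Allowing 1 mismatch, Acta2 and Lmod1 each held 2 matches that did not overlap, against 19.9% of windows with at least 1 and 3.38% with at least 2. Capitals mark these matches in the 250 bases before the start, on the minus strand for Acta2 (chr19:34255374-34255623) and on the plus strand for Lmod1 (chr1:135324563-135324812), written 5′ to 3′.
Acta2: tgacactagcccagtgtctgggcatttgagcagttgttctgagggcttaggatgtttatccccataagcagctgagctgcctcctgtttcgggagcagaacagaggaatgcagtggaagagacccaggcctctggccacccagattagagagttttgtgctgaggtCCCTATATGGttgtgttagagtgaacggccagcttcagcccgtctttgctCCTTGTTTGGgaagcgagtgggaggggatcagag
Lmod1: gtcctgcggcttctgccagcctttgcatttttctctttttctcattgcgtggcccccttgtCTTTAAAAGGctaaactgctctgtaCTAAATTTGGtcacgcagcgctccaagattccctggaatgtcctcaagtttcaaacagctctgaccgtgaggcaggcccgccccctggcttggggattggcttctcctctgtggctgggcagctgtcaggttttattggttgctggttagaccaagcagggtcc

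In Acta2 the matches began 84 and 34 bases before the start, and in Lmod1 189 and 164 bases before it. The exact letters of the pair in Acta2, CCCTATATGG and CCTTGTTTGG, occurred in 0.0274% and 0.0791% of all windows. Those of the pair in Lmod1, CTTTAAAAGG and CTAAATTTGG, occurred in 0.14% and 0.0396%. The strings were read from these same windows and any fixed string of this length is rare, so these shares do not set the sites apart. A match is a string of letters and was not tested for binding. The start that RefSeq gives for Acta2 lies inside the span that GENCODE M21 gives the gene.

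Myocd, the coactivator (ENSMUSG00000020542, chr11:65176561-65269989, minus strand), had its highest level in E16.5 MM. Its normalized counts were 957, 893, 851, 589 and 1178 in the 5 pools of E16.5 MM. They were 63.3, 85.2, 61.7, 45.55 and 63.4 in the E16.5 FP pools, while E13.5 VM had 188, 249, 94.1, 285 and 118. Every E16.5 MM pool thus lay above every other pool, and every E13.5 VM pool lay above every E16.5 FP pool. The E13.5 MM pools had 75.7, 31.5, 42.9, 28.2 and 16.8, and the E13.5 SM pools 24.2, 11.5, 30.8, 12.6 and 9.93, so the pools of these tissues overlapped. The order of means was E16.5 MM (894 ± 212), E13.5 VM (187 ± 81.9), E16.5 FP (63.8 ± 14.1), E13.5 MM (39.0 ± 22.5) and E13.5 SM (17.8 ± 9.20). The neighbours E16.5 FP and E13.5 MM were the only ones not to pass the adjusted p (0.0901).

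Acta2 (ENSMUSG00000035783, chr19:34241090-34255590, minus strand) encodes alpha smooth muscle actin. It averaged 4556 ± 1275 (E16.5 FP), 3981 ± 500 (E16.5 MM), 2445 ± 470 (E13.5 MM), 595 ± 227 (E13.5 SM) and 2741 ± 526 (E13.5 VM). The means of the E16.5 tissues did not differ beyond their spread (adjusted p = 0.551), nor did those of E13.5 MM and E13.5 VM (adjusted p = 0.711). E13.5 SM stood apart, with its highest pool at 972 and the lowest pool of any other tissue at 2059. Actg2 (ENSMUSG00000059430, chr6:83512905-83536265, minus strand) encodes gamma smooth muscle actin, the form typical of visceral muscle. Its normalized counts were 509.5, 268, 211, 289 and 213 in E16.5 FP against 363, 337, 420.3, 237 and 233 in E16.5 MM. At E13.5 they were between 5.30 and 7.91 in MM, between 4.97 and 30.5 in SM and between 8.62 and 35.3 in VM. The gene was thus low in all E13.5 tissues, with its lowest mean in E13.5 MM.

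Myh11 (ENSMUSG00000018830, chr16:14194535-14291372, minus strand), the smooth muscle myosin heavy chain, had no overlap between the stages. Its normalized counts were 2318, 1359, 1555, 2021 and 1376 in the E16.5 FP pools against 1538, 1214, 1585, 850.1 and 1145 in those of E16.5 MM. The E13.5 MM pools had 79.0, 88.9, 71.2, 55.5 and 39.7, those of E13.5 SM 83.3, 122, 114, 79.1 and 62.5, and those of E13.5 VM 41.9, 25.9, 24.3, 35.9 and 19.7. The highest E13.5 pool, at 122, lay far below the lowest E16.5 pool, at 850.1. Among the E13.5 tissues the order was E13.5 SM, E13.5 MM and E13.5 VM, of which E13.5 SM and E13.5 MM did not differ at the adjusted p (0.095). Mylk (ENSMUSG00000022836, chr16:34745210-35002420, plus strand), the myosin light chain kinase, was the only member in which all 5 tissues differed from their neighbours in the order of means. It averaged 2672 ± 267 (E16.5 FP), 3976 ± 661 (E16.5 MM), 954 ± 111 (E13.5 MM), 299 ± 17.5 (E13.5 SM) and 539 ± 54.8 (E13.5 VM).

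Tagln (ENSMUSG00000032085, chr9:45929619-45936058, minus strand) encodes transgelin, a calponin relative that binds actin. It averaged 1365 ± 615 (E16.5 FP), 845 ± 93.3 (E16.5 MM), 616 ± 55.3 (E13.5 MM), 101 ± 25.6 (E13.5 SM) and 907 ± 408 (E13.5 VM). Only E13.5 SM was set apart from its neighbour, since the other 4 means followed each other with adjusted p of 0.061 or more. Cnn1 (ENSMUSG00000001349, chr9:22099216-22109630, plus strand) encodes calponin, which damps the myosin motor. It averaged 187 ± 94.2 (E16.5 FP), 171 ± 28.8 (E16.5 MM), 39.7 ± 7.82 (E13.5 MM), 3.60 ± 1.82 (E13.5 SM) and 32.2 ± 19.1 (E13.5 VM). In E13.5 SM its estimated counts before scaling were 5, 6, 3, 1 and 4, so it was barely detected there.

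Lmod1 (ENSMUSG00000048096, chr1:135324807-135368065, plus strand) encodes leiomodin, which starts new actin filaments. It averaged 102 ± 35.7 (E16.5 FP), 54.6 ± 16.4 (E16.5 MM), 10.8 ± 6.45 (E13.5 MM), 3.87 ± 3.89 (E13.5 SM) and 17.4 ± 7.96 (E13.5 VM). Its level in E13.5 SM was set largely by replicate 4, at 10.8, while the other 4 pools lay between 1.79 and 2.87. Smtn (ENSMUSG00000020439, chr11:3517523-3540612, minus strand) encodes smoothelin, an actin-binding protein of contractile smooth muscle. It averaged 1645 ± 461 (E16.5 FP), 1467 ± 132 (E16.5 MM), 831 ± 105 (E13.5 MM), 595 ± 117 (E13.5 SM) and 1112 ± 132 (E13.5 VM), the narrowest span among the 9 genes as a ratio of the highest to the lowest mean.

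**Figure D1:**
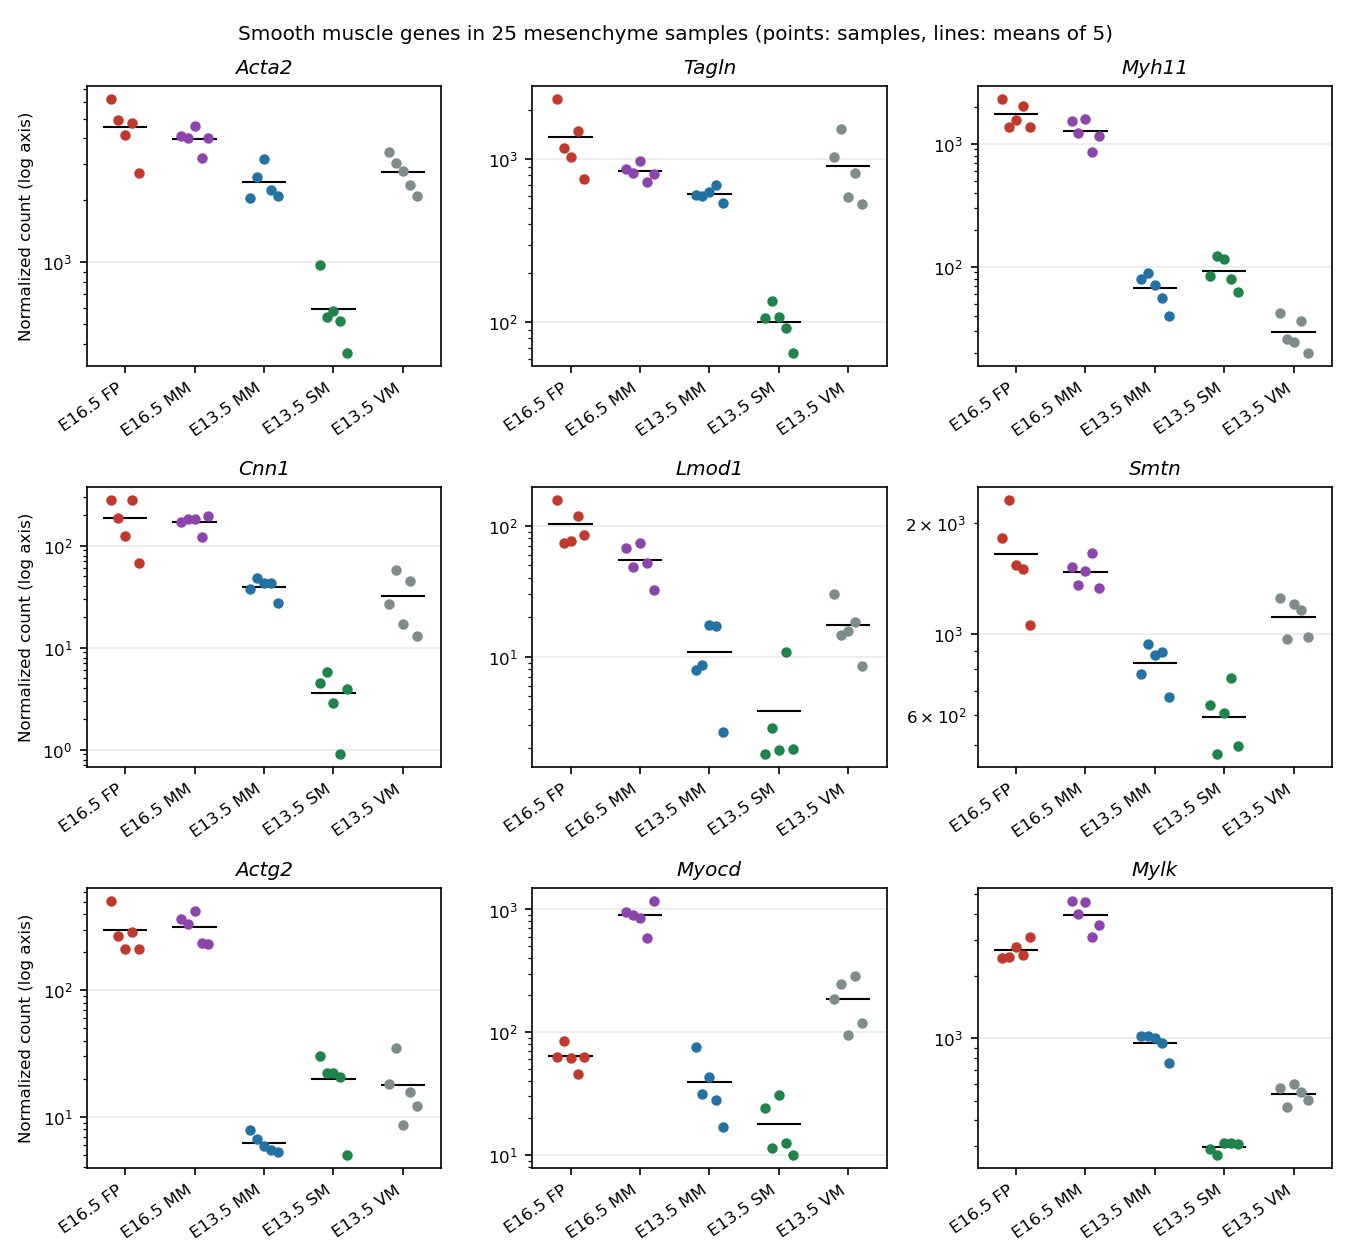
Normalized counts (log axis) of the 9 smooth muscle genes in the 25 pools, by tissue, with 1 point per pool and a line at the mean of 5. Myh11 and Actg2 are high in both E16.5 tissues and low in the E13.5 tissues, whereas Myocd is high in E16.5 MM alone among the E16.5 tissues.

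Levels of different genes were compared per kb of exon, since longer genes give more reads. On that scale Acta2 was the most abundant of the 9 in all 5 tissues, and its share of their summed normalized count per kb was lowest in E16.5 MM (51.6%) and highest in E13.5 MM (64.2%). Tagln came next in 4 tissues and Smtn in E13.5 SM. Myh11 took 5.83% (E16.5 FP), 4.74% (E16.5 MM), 0.508% (E13.5 MM), 2.36% (E13.5 SM) and 0.188% (E13.5 VM) of the sum. Myocd was the least abundant of the 9 in E16.5 FP, at 9.94 normalized counts per kb, but stood above Cnn1 and Lmod1 in E16.5 MM, at 139 normalized counts per kb.

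The comparison of E16.5 MM with E13.5 MM asks how the mammary mesenchyme changes between the stages. Of the 9 genes, 8 were called higher in E16.5 MM and none lower, where 12.6% of all tested genes were called higher and 7.16% lower. Their median log2 fold change was 2.101, against 0.01 for all genes. The largest rises were of Actg2 (log2 fold change 5.66 ± 0.40 SE, 50.5-fold, adjusted p = 3.6e-11), Myocd (4.54 ± 0.37, 23.3-fold, adjusted p = 6.63e-10) and Myh11 (4.25 ± 0.24, 19.0-fold, adjusted p = 2.07e-12). Lmod1, Cnn1 and Mylk rose by 2.32, 2.101 and 2.06 on the log2 scale. Smtn and Acta2 rose by 0.82 and 0.70. Tagln had a log2 fold change of 0.46 that was not called (adjusted p = 0.158). The pools of the 2 stages did not overlap for any of the 9 genes, which held for 36.3% of all genes. All 8 calls held when any of the 10 libraries was left out.

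E16.5 FP was compared with E13.5 MM as the other E16.5 tissue of the mammary region, and the E13.5 MM pools are shared with the comparison above. Of the 9 genes 8 were called higher in E16.5 FP and none lower, where 14.3% of all genes were called higher and 11.2% lower. Actg2 was 47.3-fold higher (log2 fold change 5.56 ± 0.40 SE, adjusted p = 1.47e-11) and Myh11 25.9-fold higher (4.70 ± 0.25, adjusted p = 9.93e-14). Lmod1, Cnn1, Mylk and Tagln were higher by 3.22, 2.24, 1.49 and 1.15 on the log2 scale, and Smtn and Acta2 by 0.99 and 0.90. The gene not called was Myocd, with 63.8 ± 14.1 in E16.5 FP against 39.0 ± 22.5 in E13.5 MM (log2 fold change 0.74 ± 0.36 SE, adjusted p = 0.0901). It was called without E13.5 MM replicate 1 (log2 fold change 1.10, adjusted p = 0.0117) and, with all pools kept, by the Wald test of DESeq2 (0.75, adjusted p = 0.0486).

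The 2 tissues of E16.5 differed most in Myocd. It was 0.0716 times as high in E16.5 FP as in E16.5 MM (log2 fold change -3.80 ± 0.35 SE, adjusted p = 8.7e-09), with every E16.5 FP pool below every E16.5 MM pool. For 5 of the contractile genes the same comparison did not pass the adjusted p, and the unadjusted 95% intervals of their log2 fold changes stayed under 1 in size. The log2 fold change was 0.45 for Myh11 (interval 0.02 to 0.87, adjusted p = 0.0985) and 0.20 for Acta2 (interval -0.25 to 0.64, adjusted p = 0.551). It was 0.17 for Smtn (interval -0.15 to 0.48), 0.14 for Cnn1 (interval -0.57 to 0.85) and -0.09 for Actg2 (interval -0.71 to 0.52), with adjusted p of 0.456 or more. The signs for Cnn1 and Actg2 turned in some of the alternative fits. Lmod1 stood at 102 ± 35.7 in E16.5 FP against 54.6 ± 16.4 in E16.5 MM, with pools that just failed to overlap, and was not called (0.91 ± 0.40 SE, adjusted p = 0.085). In all, 1 of the 9 genes was called higher in E16.5 FP and 1 lower, where 6.78% of all genes were called higher and 7.34% lower.

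The gene called higher in E16.5 FP was Tagln, at 2357, 1172, 1041, 1498 and 756 normalized counts in E16.5 FP against 878, 831, 980, 725 and 813 in E16.5 MM. These pools overlapped, and the excess was carried by replicates 1 and 4 of E16.5 FP (log2 fold change 0.69 ± 0.26 SE, adjusted p = 0.0468). The call was lost in 8 of the 10 fits that left out a library, and remained only without replicate 3 or replicate 5 of E16.5 FP. Without E16.5 FP replicate 1 the log2 fold change was 0.40 (adjusted p = 0.231). Mylk, whose pools did not overlap, was lower in E16.5 FP by a log2 fold change of -0.57 ± 0.10 SE (adjusted p = 6.79e-05), which is just inside the fold threshold, so it was not called. Its normalized counts ran from 2462 to 3091 in E16.5 FP against 3109 to 4654 in E16.5 MM. It was called in 5 of the 10 fits with a library left out, those without replicates 3 or 5 of E16.5 FP or without replicates 2, 4 or 5 of E16.5 MM. With all 10 libraries kept, several other fits also put it just past the threshold, among them that of DESeq2 (-0.58, adjusted p = 8.89e-07).

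The levels of contractile genes relative to Myocd, both per kb of exon, varied widely between tissues. Myh11 was between 13.49 and 37.5 times as high as Myocd in the pools of E16.5 FP and between 0.822 and 1.57 times in those of E16.5 MM. The ratio lay between 0.883 and 2.38 for E13.5 MM pools, 2.91 and 8.95 for E13.5 SM pools, and 0.0881 and 0.218 for E13.5 VM pools. The ratio of Acta2 to Myocd had a median of 197 (E16.5 FP), 13.1 (E16.5 MM), 234 (E13.5 MM), 118 (E13.5 SM) and 51.9 (E13.5 VM). E16.5 MM and E13.5 VM, the tissues richest in Myocd, had the lowest median ratios for both genes. Myocd is the divisor of both ratios, so more Myocd lowers them by construction. These ratios are descriptions with no test.

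**Figure D2:**
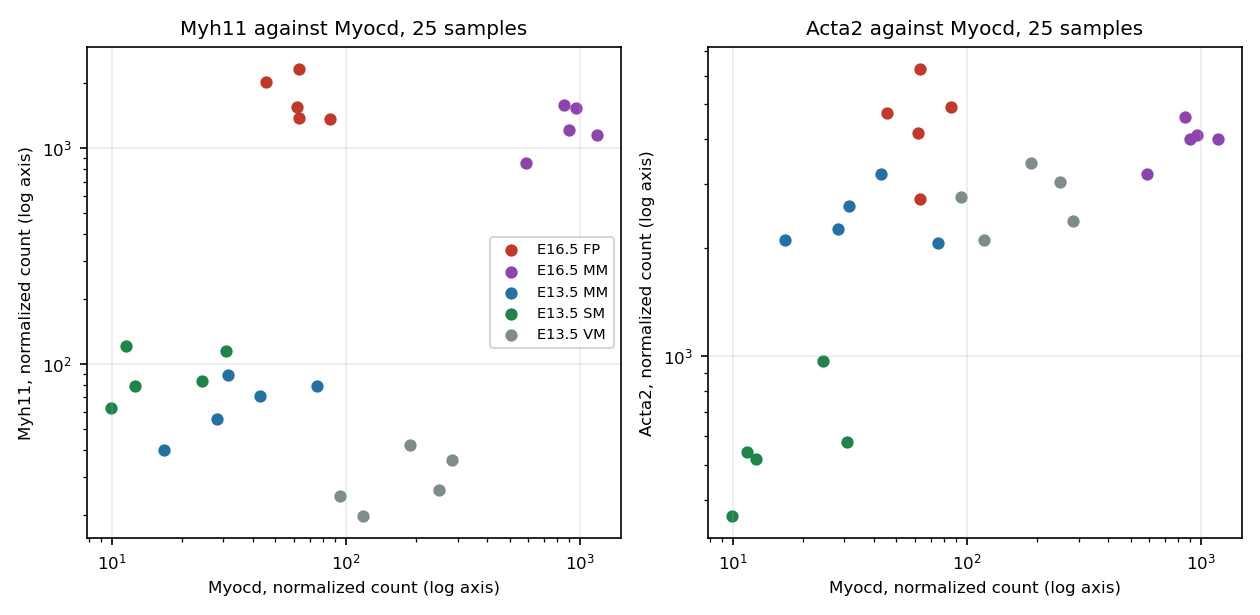
Normalized counts of Myh11 (left) and Acta2 (right) against those of Myocd in the 25 pools, 1 point per pool, both axes log. E16.5 FP pools have 45.55 to 85.2 normalized counts of Myocd and E16.5 MM pools 589 to 1178, at Myh11 levels that overlap.

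E16.5 FP also had less Myocd and more of most contractile genes than the skin mesenchyme of the earlier stage. Myocd was lower in E16.5 FP (log2 fold change -1.54 ± 0.34 SE, adjusted p = 0.000402), while Myh11, Actg2, Lmod1, Cnn1, Mylk and Acta2 were higher by 5.87, 4.06, 2.55, 2.55, 2.31 and 0.73 on the log2 scale. In that comparison 15.0% of all genes were called higher and 12.4% lower.

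The comparison of E13.5 MM with E13.5 VM asks what sets the mesenchyme around the mammary bud apart from skin mesenchyme taken at a distance from it. Of the 9 genes, 2 were called higher in E13.5 MM and 1 lower, where 3.79% of all genes were called higher and 2.66% lower. Myocd was lower in E13.5 MM, by a log2 fold change of -2.28 ± 0.35 SE (adjusted p = 4.14e-05), with no overlap between the pools. Myh11 was higher in E13.5 MM, at 66.9 ± 19.5 against 29.5 ± 9.09 in E13.5 VM (log2 fold change 1.18 ± 0.27 SE, adjusted p = 0.0033), with 1 pair of pools crossing. Mylk was higher too, at 954 ± 111 in E13.5 MM against 539 ± 54.8 in E13.5 VM (0.82 ± 0.10 SE, adjusted p = 1.88e-06). Actg2 had a log2 fold change of -1.50 ± 0.43 SE (adjusted p = 0.0168) but did not reach 50 normalized counts in either tissue. The other 5 genes did not pass the adjusted p. All 3 calls held when any library was left out.

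E13.5 SM was the tissue with the lowest mean for 7 of the 9 genes, the exceptions being Myh11, lowest in E13.5 VM, and Actg2, lowest in E13.5 MM. In E13.5 MM over E13.5 SM, 3 of the 9 were called higher and none lower, where 14.5% of all genes were called higher and 15.6% lower. They were Tagln (log2 fold change 2.60 ± 0.29 SE, 6.08-fold, adjusted p = 7.17e-08), Acta2 (2.04 ± 0.22, 4.11-fold, adjusted p = 4.87e-08) and Mylk (1.68 ± 0.11, 3.19-fold, adjusted p = 9.21e-13). Cnn1 had the largest difference, a log2 fold change of 3.43 ± 0.47 SE (adjusted p = 8.35e-07) with no overlap, but its mean of 39.7 in E13.5 MM lay below the count threshold. Actg2 and Myh11 had values on the other side, with log2 fold changes of -1.68 ± 0.42 SE (adjusted p = 0.00136) and -0.47 ± 0.24 SE (adjusted p = 0.095), and neither was called. Without E13.5 SM replicate 4 Smtn was also called higher (0.58, adjusted p = 0.00281), and without E13.5 SM replicate 5 Myh11 was called lower (-0.58, adjusted p = 0.0487).

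Set against E13.5 SM, both E16.5 FP and E16.5 MM had all 9 genes called higher, with no overlap between pools for any of them. In E16.5 FP over E13.5 SM 20.2% of all genes were called higher and 19.3% lower, and pools did not overlap for 52.1% of them. For E16.5 MM over E13.5 SM these shares were 18.5%, 16.6% and 51.5%. The fits share the E13.5 SM pools. Cnn1 had log2 fold changes of 5.66 ± 0.47 SE for E16.5 FP and 5.53 ± 0.47 SE for E16.5 MM, and Myocd 1.83 ± 0.39 SE for E16.5 FP and 5.64 ± 0.40 SE for E16.5 MM. Smtn had the smallest of both fits, 1.47 ± 0.16 SE for E16.5 FP and 1.30 ± 0.16 SE for E16.5 MM.

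**Figure D3:**
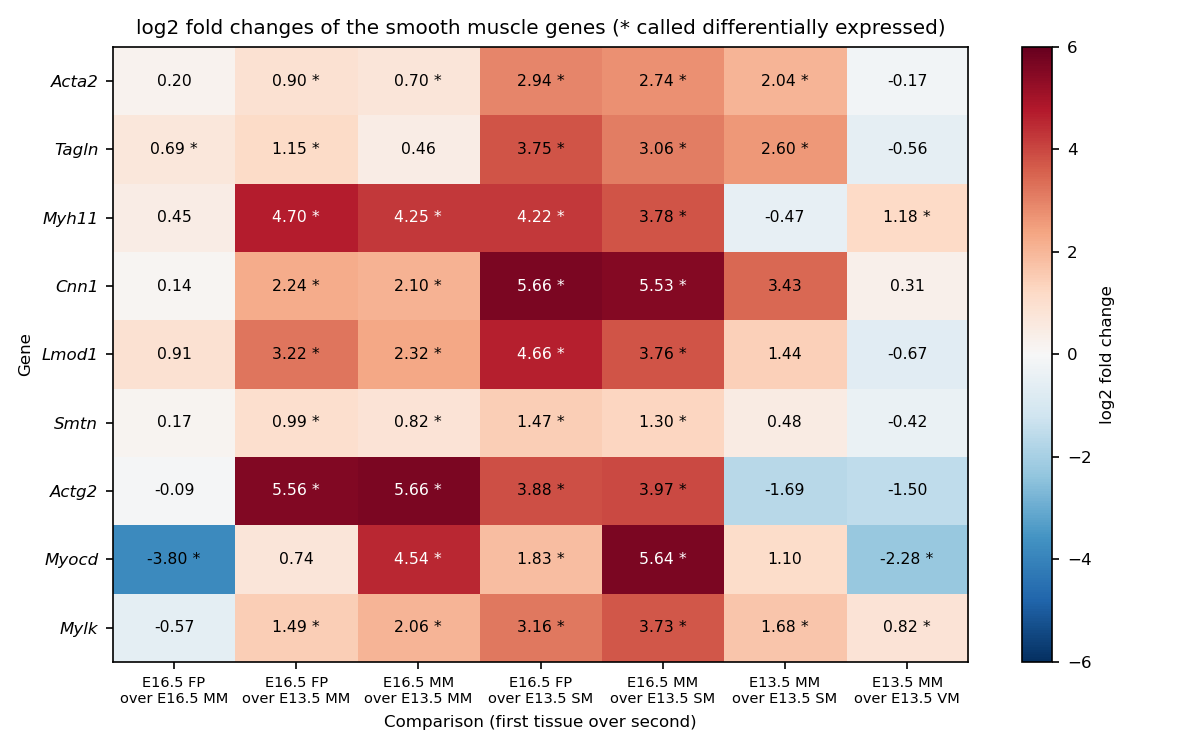
Heat map of the log2 fold changes of the 9 genes (rows) in 7 comparisons (columns, first tissue over second), with the value printed in each cell and an asterisk where the gene was called. The 2 columns against E13.5 SM with an E16.5 tissue on top are called throughout, and the column of E16.5 FP over E16.5 MM has its only strong colour at Myocd (-3.80).

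Other genes of the contractile apparatus formed a list of 20 that included myosin light chains, tropomyosins and calponin relatives. Of the 20, E16.5 MM over E13.5 MM had 3 called higher and 2 lower, close to the 12.6% and 7.16% of all genes, with a median log2 fold change of 0.18 against 0.01 for all genes. Des, the intermediate filament desmin of all muscle types, was higher by 1.22, and Ppp1r12b, a subunit of myosin phosphatase, by 0.90, whereas the tropomyosin gene Tpm1 was lower (-1.28, adjusted p = 4.16e-06). For E16.5 FP over E13.5 MM there were 4 higher and 4 lower (14.3% and 11.2% of all genes), led by Des (3.62) and, downward, by the integrin gene Itga8 (-3.15). Between the E16.5 tissues 2 were higher in E16.5 FP and 4 lower (6.78% and 7.34% of all genes). There Itga8 was at 485 in E16.5 FP against 4049 in E16.5 MM (log2 fold change -3.06 ± 0.15 SE, adjusted p = 9.05e-14).

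In E13.5 MM over E13.5 SM 9 of the same 20 were called higher and none lower, where 14.5% and 15.6% of all genes were, with Ppp1r14a, a phosphatase inhibitor, at 1.92, Itga8 at 1.87 and Tpm1 at 1.85 on the log2 scale. In E13.5 MM over E13.5 VM 1 was higher, Tpm1 (0.66), and 4 were lower (3.79% and 2.66% of all genes), among them Synpo2 (-0.80) and Pdlim7 (-0.64). Against E13.5 SM, E16.5 FP had 9 higher and 2 lower (20.2% and 19.3% of all genes), and E16.5 MM had 9 higher and none lower (18.5% and 16.6%). Of the nonmuscle actin and myosin genes 5 were tested. In E13.5 MM over E13.5 SM Myh10, Actb and Myl12a were higher by 0.94, 0.91 and 0.72, where 14.5% of all genes were called higher and 15.6% lower. The other 2 were not called, of which Actg1 had a log2 fold change of -0.15. In E16.5 MM over E13.5 MM Myh9 was higher (0.58) and Myh10 lower (-0.99), where 12.6% and 7.16% of all genes were. None of the 5 was called in E13.5 MM over E13.5 VM (3.79% and 2.66% of all genes) or in E16.5 FP over E16.5 MM (6.78% and 7.34%).

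Srf, the DNA-binding partner of myocardin, had its highest mean in E13.5 VM and its lowest in E13.5 SM. It averaged 683 ± 91.9 (E16.5 FP), 662 ± 70.3 (E16.5 MM), 801 ± 92.7 (E13.5 MM), 368 ± 32.5 (E13.5 SM) and 1127 ± 227 (E13.5 VM). It was called in E13.5 MM over E13.5 SM (1.12 ± 0.12 SE, adjusted p = 1.35e-08) but in none of the comparisons among E16.5 FP, E16.5 MM and E13.5 MM. In a list of 15 regulators of smooth muscle transcription, 14 were tested. In E16.5 MM over E13.5 MM 5 were higher and 1 lower, where 12.6% and 7.16% of all genes were, led by Klf4, a repressor of the contractile genes in adult vessels (1.81), Mrtfa, a myocardin relative (1.03), and Heyl (0.98). E16.5 FP over E13.5 MM also had 5 higher and 1 lower (14.3% and 11.2% of all genes), again with Klf4 on top (2.03). In E16.5 FP over E16.5 MM 1 of the 14 was called (Prdm6, a repressor active in smooth muscle), where 7.34% of all genes were called lower. It was at 30.3 in E16.5 FP against 119 in E16.5 MM (log2 fold change -1.97 ± 0.18 SE, adjusted p = 2.93e-09).

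Between E13.5 MM and E13.5 SM 4 regulators were higher in E13.5 MM and 4 lower, where 14.5% and 15.6% of all genes were, with Tbx18 at 1.93, Gata6 at -1.90 and Mrtfa at -1.67. Set against E13.5 VM, E13.5 MM had 2 of them higher and 2 lower (3.79% and 2.66% of all genes), with Prdm6 at 3.14, Tbx18 at 1.04 and Gata6 at -0.94. Prdm6 had 77.3 normalized counts in E13.5 MM against 8.63 in E13.5 VM, the opposite order to that of Myocd in the same tissues. The signs of the log2 fold changes also differed for E16.5 FP over E13.5 MM (-1.35 for Prdm6 and 0.74 for Myocd, not called). They were alike for E16.5 MM over E13.5 MM (0.62 for Prdm6 and 4.54 for Myocd) and E16.5 FP over E16.5 MM (-1.97 and -3.80). They were also alike over E13.5 SM, for E13.5 MM (1.61 and 1.10), E16.5 MM (2.23 and 5.64) and E16.5 FP (0.265 and 1.835). There Myocd was not called for E13.5 MM, nor Prdm6 for E16.5 FP. Against E13.5 VM, with 8.63 normalized counts of Prdm6, E16.5 FP (30.3) and E13.5 SM (25.1) also had more Prdm6 but less Myocd. E16.5 MM, with 119 for Prdm6, had more of both genes than E13.5 VM. Of the regulators, 5 were higher and 4 lower in E16.5 FP over E13.5 SM (20.2% and 19.3% of all genes). For E16.5 MM over E13.5 SM 5 were higher and 5 lower (18.5% and 16.6%).

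Genes of vascular mural cells, the pericytes and smooth muscle cells on vessel walls, also moved with the stage. Of 10 such genes 6 were called higher and none lower for E16.5 MM over E13.5 MM, where 12.6% and 7.16% of all genes were, and 6 higher and 1 lower for E16.5 FP over E13.5 MM (14.3% and 11.2%). Rgs5, a pericyte gene, was at 3738 ± 814 (E16.5 FP) and 5247 ± 720 (E16.5 MM), against 47.9 ± 26.3 (E13.5 MM), 221 ± 32.4 (E13.5 SM) and 17.5 ± 8.15 (E13.5 VM). Summed over the list, the CPM (counts scaled to the library total) were 619 to 766 (E16.5 FP), 704 to 926 (E16.5 MM), 382 to 474 (E13.5 MM), 424 to 473 (E13.5 SM) and 357 to 415 (E13.5 VM). The 9 smooth muscle genes summed to 350 to 577 CPM (E16.5 FP), 384 to 558 (E16.5 MM), 156 to 229 (E13.5 MM), 50.9 to 86.4 (E13.5 SM) and 166 to 236 (E13.5 VM). The sums of the mural genes in E13.5 SM thus lay within the range of E13.5 MM while those of the 9 genes lay below it. Gene by gene, however, 5 of the 10 mural genes were called lower and 2 higher in E13.5 MM over E13.5 SM, where 15.6% and 14.5% of all genes were. Lower in E13.5 MM were Rgs4 (-3.43), Ndufa4l2 (-3.06), Rgs5 (-2.22), Abcc9 (-1.10) and Notch3 (-0.61), and higher were Mcam (0.959) and Kcnj8 (0.835). The 5 lower ones had the opposite order to Acta2, Tagln and Mylk, and the 2 higher ones the same order. Of the smooth muscle genes, Actg2 (-1.68) and Myh11 (-0.47) also lay lower in E13.5 MM, though neither was called. Both lists were thus mixed. The part of mural cells in these differences was not tested.

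Genes typical of other tissues were detected too. Of 12 skeletal muscle genes all 12 were called higher for E16.5 FP over E16.5 MM, where 6.78% of all genes were called higher and 7.34% lower. For E16.5 MM over E13.5 MM 10 of the 12 were higher and 1 lower (12.6% and 7.16% of all genes). The summed CPM of the 12 was 2190 in replicate 5 of E16.5 FP and between 12700 and 21400 in its other pools. The other tissues had 825 to 3610 (E16.5 MM), 132 to 485 (E13.5 MM), 119 to 774 (E13.5 SM) and 158 to 619 (E13.5 VM). The striated muscle actins followed, with Acta1 at 27400 ± 15730 in E16.5 FP against 2678 ± 1659 in E16.5 MM, and Actc1 at 17360 ± 10390 for E16.5 FP against 2398 ± 1063 for E16.5 MM. Replicate 5 of E16.5 FP, the lowest of its tissue in the skeletal muscle sum, was still above every E13.5 SM pool in that sum. It also lay above every E13.5 SM pool for all 9 smooth muscle genes. Against E13.5 MM, this pool lay within the range for Acta2 (2730 against 2059 to 3191) and Myocd (63.4 against 16.8 to 75.7). For the other members it lay above every E13.5 MM pool. Within E16.5 FP it was the lowest pool for 4 of the 9 and the highest for 1. The 9 endothelial genes summed to 1090 to 1370 CPM (E16.5 FP), 879 to 1110 (E16.5 MM), 709 to 892 (E13.5 MM), 502 to 596 (E13.5 SM) and 660 to 769 (E13.5 VM). Their sums in E13.5 SM thus lay below those in E13.5 MM, as did those of the 9 smooth muscle genes. The 7 epithelial genes summed to 5.6 to 37.6 CPM (E16.5 FP), 12.7 to 98.3 (E16.5 MM), 3.96 to 14.6 (E13.5 MM), 19.3 to 27.5 (E13.5 SM) and 2.94 to 4.9 (E13.5 VM). Mesenchyme genes such as Vim and Col1a1 were abundant throughout, with a summed CPM of 12200 or more in every pool, and no gene of these lists was at 0 in all pools of a tissue. The part of these other cells in the values of the 9 genes was not tested.

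**Figure D4:**
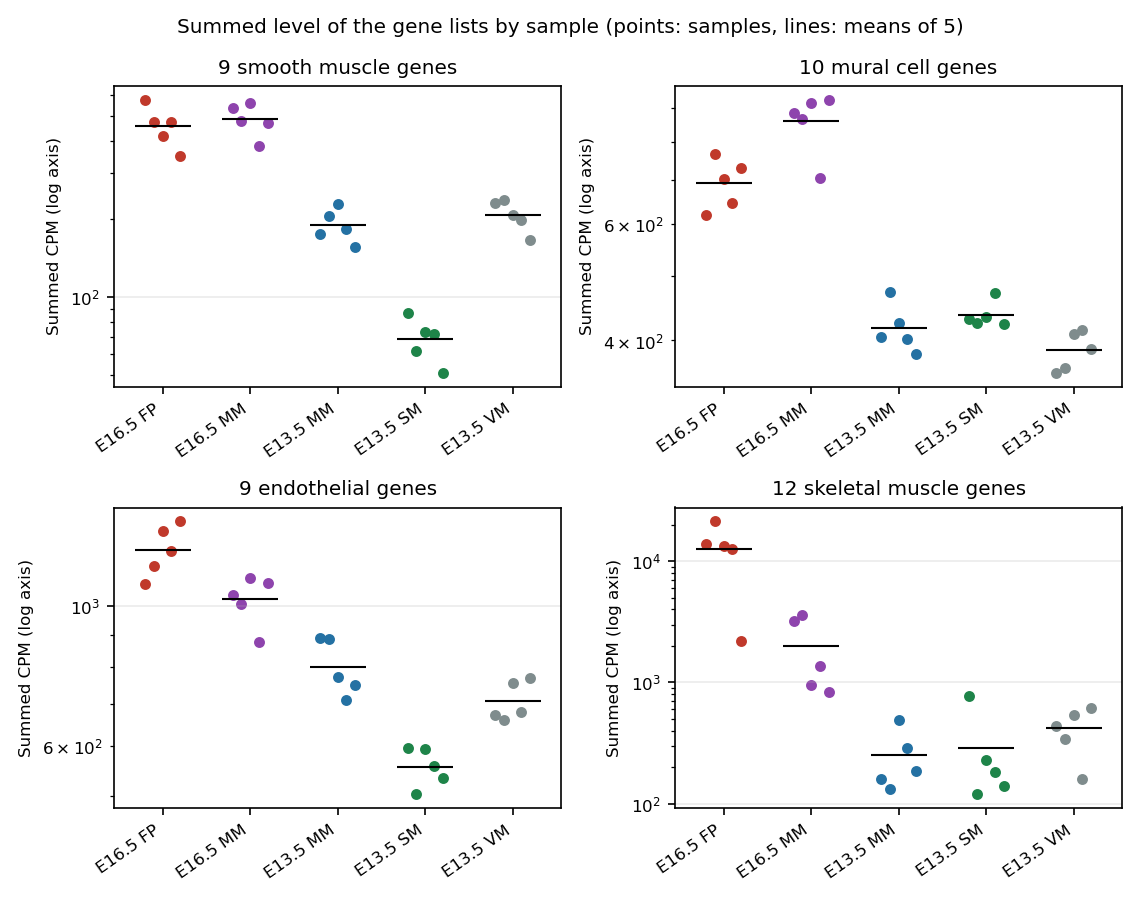
Summed CPM (log axis) of the 9 smooth muscle genes and of the lists of mural, endothelial and skeletal muscle genes in the 25 pools, with 1 point per pool and a line at the mean of 5. The smooth muscle and mural sums are higher at E16.5. The smooth muscle sum is lower in E13.5 SM (50.9 to 86.4) than in E13.5 MM (156 to 229). So is the endothelial sum (502 to 596 against 709 to 892), while the mural sums of these tissues overlap.

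The genes whose pattern was most like that of the 9 were found by Pearson correlation of log2 CPM over the 25 pools, which share tissues and are not independent. With the mean z-score of the 9, r was 0.973 for Lgmn, 0.967 for Tpsb2, 0.964 for Unc93b1, 0.964 for Sema3c and 0.963 for Aspn. Sema3c, a secreted semaphorin, had normalized counts of 10430 (E16.5 FP), 9320 (E16.5 MM), 2781 (E13.5 MM), 1270 (E13.5 SM) and 3821 (E13.5 VM). With Myocd alone the list was a different one, with r of 0.971 for Trps1, 0.950 for Fosl2, 0.933 for Ankrd29, 0.931 for Slc8a1 and 0.921 for Rftn2. Trps1, a GATA-type repressor, had normalized counts of 1074 (E16.5 FP), 9049 (E16.5 MM), 787 (E13.5 MM), 570.1 (E13.5 SM) and 1844 (E13.5 VM). Among the 9 themselves, Cnn1 lay closest to the mean z-score (r = 0.956) and Myocd farthest from it (r = 0.727). The correlation of Myocd with the other 8 ran from 0.405 for Myh11 to 0.657 for Smtn.

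Genes with sequence in common also share reads, which Salmon then has to assign, so the sharing of stretches of 31 bases was counted in the GENCODE M21 transcripts. On the same strand, Acta2 shared 1.39% of its stretches with other genes, mainly the actin gene Actg1 and a predicted gene. Actg2 shared 1.21%, partly with Actc1, and Myh11 0.905%, mainly with Myh9. Myocd shared 0.713%, Mylk 0.143% and the other 4 genes none. On the opposite strand Tagln shared 62.2%, mostly with an antisense gene that the count table does not list, Smtn 12% and Mylk 5.48%. The sources used here do not say whether the counting took strand into account, so reads of Tagln and of its antisense partner cannot be told apart.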

How the data were processed

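Estimated counts per gene were deposited by the authors for 25 libraries (Ovation SoLo kit, NextSeq 500) as whole numbers. Per the labels and methods, reads were checked with FastQC 0.11.8 and MultiQC 1.9, trimmed with Trimmomatic 0.39, cleared of ribosomal reads with SortMeRNA and quantified with Salmon 0.99.0 on mm10. Of 35880 gene identifiers, 446 had no symbol in the name table used here and held 0.103% of all counts. Libraries were grouped by tissue, stage and replicate number from the labels. No pair of libraries held identical values.

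TMM factors ranged from 0.923 to 1.09. Tissues were compared in R 4.3.3 by the quasi-likelihood F test that edgeR 4.0.16 offers (expression filter, robust dispersion, 1 mean per tissue, no covariate, 20 residual degrees of freedom), fitted on all 25 libraries, with Benjamini-Hochberg adjustment over the 17657 genes tested. SE was taken as the absolute log2 fold change over the root of F. The thresholds on adjusted p, fold and mean count are those of the study's methods, which do not say over which samples the count is averaged, and here the mean of the higher tissue was used. The common dispersion was 0.0433. Log2 CPM used a prior count of 2. The fit was tested on simulated data. Exon lengths and overlaps came from GENCODE M21, promoters from RefSeq. Plots were drawn with matplotlib 3.10.9 and tables handled with pandas 2.3.3 (Python 3.11.15, numpy 2.4.6).

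The 9 genes and the lists were chosen with earlier results of these data known. Named beside the 9 are up to 3 called members of largest change per list and comparison, and both striated actins. Also named are all mural genes called in E13.5 MM over E13.5 SM, and genes that overlap members. The 5 genes most like the mean of the 9 and the 5 most like Myocd are named too. Myl12b, with 2 identifiers, was left out. Alternatives were DESeq2 1.42.0 with its Wald test, edgeR with DESeq2's size factors, no filter, a fit of 2 tissues only, the replicate number as a block, the adjusted p alone, the count threshold applied to the mean of both tissues, and each library left out in turn.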

Additional observations from a re-analysis of the deposited data

Results flagged for a closer look

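In E16.5 FP, Actg2 had 509.5 normalized counts in replicate 1, far above the other 4 pools, and in E13.5 SM Lmod1 had 10.8 normalized counts in replicate 4, far above the other 4 pools. These were the only pools set apart in this way (Dixon's test at 95%) among 45 groups of 5 pools, and chance gives such a gap in about 1 in 20 groups.

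The change over E13.5 MM differed between E16.5 FP and E16.5 MM for 3 genes, as tested by the direct comparison of the E16.5 tissues at the adjusted p. The difference was -3.80 on the log2 scale for Myocd (adjusted p = 8.7e-09), lower in all 5 E16.5 FP pools than in any E16.5 MM pool. It was -0.57 for Mylk (adjusted p = 6.79e-05), also without overlap, and 0.69 for Tagln (adjusted p = 0.0468), with overlap. The causes were not tested.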

How the results depend on the processing

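The numbers called among all tested genes changed by at most 1.5-fold except where the thresholds on fold and mean count were dropped. For the 9 smooth muscle genes the number also changed by more than 1.5-fold in 5 of 70 counts with a library left out. All 5 were in E16.5 FP over E16.5 MM, and smaller changes are given below. With the adjusted p alone, 5960 genes passed in E16.5 FP over E16.5 MM (2494 with all thresholds), 9353 in E16.5 FP over E13.5 MM (4495), 8720 in E16.5 MM over E13.5 MM (3494), 12653 in E16.5 FP over E13.5 SM (6980), 12019 in E16.5 MM over E13.5 SM (6199), 10781 in E13.5 MM over E13.5 SM (5313) and 2747 in E13.5 MM over E13.5 VM (1139). By construction this setting asks less of each gene. Of the 9 smooth muscle genes, 8 then passed in E13.5 MM over E13.5 SM in place of 3. With the count threshold on the mean of both tissues, some calls of low counts were lost. For E16.5 MM, Lmod1 (54.6) was lost over E13.5 MM (10.8) and over E13.5 SM (3.87). Lost too were Myocd in E16.5 FP over E13.5 SM (63.8 and 17.8) and Myh11 in E13.5 MM over E13.5 VM (66.9 and 29.5).

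With a library left out, the 9 genes gave 1 to 3 calls in E16.5 FP over E16.5 MM, 8 to 9 in E16.5 FP over E13.5 MM, 3 to 4 in E13.5 MM over E13.5 SM, and unchanged counts in the other 4 comparisons, namely 8, 9, 9 and 3. In E16.5 FP over E16.5 MM the count fell to 1 without replicates 1, 2 or 4 of E16.5 FP or replicates 1 or 3 of E16.5 MM. Tagln was also lost there with no expression filter (adjusted p = 0.131) and in the fit of the 2 tissues only (adjusted p = 0.0746). Mylk was called there with DESeq2 and with its size factors in edgeR (-0.58 each), with no expression filter (-0.60), in the fit of the 2 tissues only (-0.58) and with the adjusted p alone, and Lmod1 in the fit of the 2 tissues only (adjusted p = 0.0275). Myocd was called in E16.5 FP over E13.5 MM with DESeq2 (adjusted p = 0.0486).

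Signs turned only in E16.5 FP over E16.5 MM, and only for Cnn1 (log2 fold change 0.14), to -0.058 without E16.5 FP replicate 1 and -0.048 without E16.5 FP replicate 4, and for Actg2 (-0.09), to 0.008 without E16.5 FP replicate 3, 0.006 without E16.5 FP replicate 5 and 0.028 without E16.5 MM replicate 3. With a library left out, Cnn1 thus ran from -0.058 to 0.347 and Actg2 from -0.375 to 0.028. The cause was not tested. The replicate numbers gave no sign of pairing the samples: the correlation of same-numbered libraries ran from -0.374 to 0.289, with a median of 0.02. Libraries with unlike numbers had a median of 0.0015. The labels do not say which pools share a litter, so these values cannot exclude shared litters. With the replicate number as a block, Cnn1 in E16.5 FP over E16.5 MM was at -0.014 and Lmod1 was called there (adjusted p = 0.0421), and no other call of the 9 genes changed. Depth limits Cnn1 and Lmod1 in E13.5 SM, where pools held 1 to 12 estimated counts. It also limits Actg2 and Lmod1 in E13.5 MM, where pools held 6 to 7 and 3 to 22 estimated counts. The fold changes of these genes over E13.5 MM thus have a low base.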

Other observations

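Within a tissue, the pools that were high or low for a gene were often so for several of the 9. E16.5 FP replicate 1 was the highest of its tissue for 6 of the 9 genes and E16.5 FP replicate 5 the lowest for 4, although replicate 5 was the highest for Mylk. E16.5 MM replicate 3 was the highest for 5 genes and replicate 4 the lowest for 6. E13.5 MM replicate 5 was the lowest for 8 of the 9, and replicate 5 was also the lowest for 5 of the 9 in E13.5 SM and in E13.5 VM. The mean z-score of the 9 genes lay between 0.55 and 1.19 in E16.5 FP pools, between 0.83 and 1.11 in E16.5 MM pools, between -0.72 and -0.26 in E13.5 MM pools, between -1.56 and -1.11 in E13.5 SM pools and between -0.50 and -0.003 in E13.5 VM pools.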
